A study of Mus musculus with 265 samples.

Results

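The genes of V(D)J recombination and end joining were followed by chromatin accessibility around the start sites of Rag1, Rag2, Dntt, Xrcc4, Xrcc5, Xrcc6, Lig4, Prkdc, Dclre1c and Nhej1. A region was taken as a member where the nearest start site of a protein-coding gene (the gene's 5′ end in GENCODE vM21) was that of one of these 10 genes and lay within 50 kb of the region's midpoint. This gave 13 of the 20103 regions of the deposited matrix, while 16759 regions were assigned to some gene. The 13 regions belonged to 7 of the 10 genes. The lymphoid-specific genes held 6 of them, 3 at Dntt, 3 at Rag2 and 0 at Rag1. The general end joining genes held 7, with 2 at Xrcc4, 2 at Nhej1, 1 at Xrcc5, 1 at Lig4, 1 at Dclre1c and 0 at Xrcc6 and Prkdc. Every region of the matrix has signal in at least 5 of the 227 cells. Of the 13 members, 7 reached 5 cells in each time-point, 3 reached it at 0 hours alone (the 6.87 and 10.0 kb regions of Dntt and the 24.0 kb region of Rag2), and 3 only over both together. The study describes a larger set of peaks than the regions analysed here, so a gene without a region is without one in this matrix only.

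The study profiled single cells of B3, a mouse pre-B cell line, by ATAC-seq, in which Tn5 transposase cuts and tags accessible DNA. All cells, the 0-hour controls included, carried the inducible ERt2-Ikaros fusion, and the 24-hour cells had received 4-hydroxytamoxifen (4OHT), with a further dose partway through. Capture took place on the Fluidigm C1 microfluidic system, and each time-point has 2 such runs, of 48 and 47 cells at 0 hours and of 60 and 72 cells at 24 hours. These numbers follow the names of the deposited columns, and the numbers of cells per time-point in the paper differ slightly from them. The cells are of 1 line, and nothing in the labels says that the runs were separate cultures, so p-values measure the spread between runs, which may be technical.

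V(D)J recombination builds antigen receptor genes in developing lymphocytes. The RAG1 and RAG2 proteins cut DNA at recombination signals beside the gene segments, the Ku heterodimer (Xrcc5 and Xrcc6) holds the broken ends, DNA-PKcs (Prkdc) with Artemis (Dclre1c) opens the coding-end hairpins, and XRCC4, DNA ligase IV (Lig4) and XLF (Nhej1) seal the joint. Terminal deoxynucleotidyl transferase (Dntt) adds bases that no template encodes at the joints, mainly in heavy chain rearrangement in early B-cell precursors, whereas the end joining enzymes act in all cells that repair double-strand breaks.

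Of the 13 member regions, sequences are given here for the 6 lymphoid-specific ones and 2 of the general ones, the distal Xrcc4 region and the Lig4 region. They are from the mm10 genome, 5′ to 3′ on the forward strand. Capitals mark GGGAA (or TTCCC on the other strand), the core bound by Ikaros proteins, and CAGCTG, an E-box bound by E-proteins.
Dntt 1.94 kb downstream, chr19:41031138-41031286: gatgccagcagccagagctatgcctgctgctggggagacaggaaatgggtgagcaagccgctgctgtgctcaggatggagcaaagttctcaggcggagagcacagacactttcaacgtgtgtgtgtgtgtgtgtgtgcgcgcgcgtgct
Dntt 6.87 kb downstream, chr19:41036098-41036200: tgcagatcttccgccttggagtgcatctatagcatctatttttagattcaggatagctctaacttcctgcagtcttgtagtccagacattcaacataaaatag
Dntt 10.0 kb downstream, chr19:41039257-41039387: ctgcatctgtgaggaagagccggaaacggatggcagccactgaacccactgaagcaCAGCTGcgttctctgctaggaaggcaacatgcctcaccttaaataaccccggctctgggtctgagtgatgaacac
Rag2 25.7 kb upstream, chr2:101598900-101599039: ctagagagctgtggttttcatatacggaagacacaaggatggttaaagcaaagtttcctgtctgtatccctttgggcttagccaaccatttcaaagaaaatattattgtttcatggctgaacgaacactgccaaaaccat
Rag2 24.0 kb upstream, chr2:101600692-101600810: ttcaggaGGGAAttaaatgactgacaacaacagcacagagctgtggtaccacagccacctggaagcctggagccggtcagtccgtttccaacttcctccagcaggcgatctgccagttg
Rag2 8.64 kb upstream, chr2:101616006-101616141: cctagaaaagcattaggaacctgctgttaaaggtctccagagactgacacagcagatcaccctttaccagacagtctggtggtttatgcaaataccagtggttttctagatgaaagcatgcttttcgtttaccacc
Xrcc4 46.7 kb upstream, chr13:90136244-90136398: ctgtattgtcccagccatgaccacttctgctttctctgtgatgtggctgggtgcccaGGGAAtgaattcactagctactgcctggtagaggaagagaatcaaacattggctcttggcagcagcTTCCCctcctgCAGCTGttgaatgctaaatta
Lig4 1.27 kb downstream, chr8:9976350-9976484: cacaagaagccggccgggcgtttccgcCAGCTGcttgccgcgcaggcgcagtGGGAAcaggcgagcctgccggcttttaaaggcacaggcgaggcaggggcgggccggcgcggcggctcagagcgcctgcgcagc

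All 13 regions had 1 copy in the genome by sequence search. GGGAA was found on either strand in 6 of the 13 member regions, beside 36.4% of the 14247 regions no narrower than the narrowest and no wider than the widest member. CAGCTG, which reads the same on both strands, was found in 4 of 13, beside 12.3% of those regions. The 10.0 kb Dntt region held CAGCTG and no GGGAA, the 24.0 kb Rag2 region held GGGAA, the distal Xrcc4 region held GGGAA on each strand and CAGCTG, and the Lig4 region held GGGAA and CAGCTG. The Nhej1 region at 564 bp, whose sequence is not shown, held neither, and its log2 change of 1.38 was above the 1.09 of the Lig4 region. The forkhead motif GTAAACA and the Myc-type E-box CACGTG were found in 0 of the 13, beside 1.14% and 4.65% of the regions of these widths. A match is a run of letters and says nothing of a bound factor, and no match says only that the letters are not in the window.

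The runs held 164357 and 92639 counts at 0 hours and 122586 and 142611 counts at 24 hours. The median cell had 2898, 1787, 1840 and 1676 counts in the same order, so that 0-hour run 1 stood above the others. Since a share of cells with signal grows with depth, shares were also taken after thinning to 837 counts per cell, for which 23 cells were too shallow. B-lineage markers had regions at 8 of 9 genes, with 14.9 to 16.1 counts per 10000 counts of a run at 0 hours and 13.3 to 18 at 24 hours. Of the 8 genes, 5 had a log2 change below 0 and 3 above, and 0 were called. The surrogate light chain gene Igll1 had 347.3 and 214.9 CPM at 0 hours and 72.5 and 94.8 CPM at 24 hours (log2 change -1.76, edgeR adjusted p = 0.0881), and Cd79a was also higher in both 0-hour runs (log2 change -0.81, edgeR adjusted p = 0.720), while Pax5, Ebf1 and Blnk had log2 changes of 0.23, 0.24 and 0.51 (edgeR adjusted p = 0.856, 0.886 and 0.767). T-lineage, myeloid and erythroid markers had regions at 1 of 6, 1 of 5 and 1 of 4 genes, with at most 0.548, 0.432 and 0.979 counts per 10000 in any run, and their part in the results was not tested. Among the defining markers, no region was assigned to Cd3e, Mpo or Gata1.

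Dntt had less signal at 24 hours in 2 of its 3 regions, those 6.87 and 10.0 kb downstream of its start site, and not in the region at 1.94 kb. All 3 lie in introns of the gene. The 6.87 and 10.0 kb regions reached the minimum of 5 cells at 0 hours alone, so the p-values given for them and for the gene sum are given as a description of regions that are in the matrix through the time-point where they are high, and not as support. The 10.0 kb region had signal in 10 of 48 cells of 0-hour run 1 (20.8%, exact Clopper-Pearson 95% interval 10.5 to 35) and 8 of 47 cells of 0-hour run 2 (17%, 7.65 to 30.8). It had signal in 1 of 60 cells of 24-hour run 1 (1.67%, 0.0422 to 8.94) and in 0 of 72 cells of 24-hour run 2, which allows a share of up to 4.17% by the limit of 3 counts and 4.99% by the exact interval. Both 0-hour runs were above both 24-hour runs, and over all cells of a time-point the share was 18.9% at 0 hours and 0.758% at 24 hours. After thinning, the 4 shares were 6.25% and 10.9% at 0 hours and 2.13% and 0% at 24 hours, and the time-points still did not overlap. The fitted log2 change from 0 to 24 hours was -3.54 (SE 1.12), with an unadjusted p of 0.00165 in edgeR's quasi-likelihood test and a Benjamini-Hochberg adjusted p of 0.171 over all regions, so that it did not pass the threshold of 0.05. By p it ranked 188 of 20103 regions, and 82% of the regions over 1 kb from a start site were detected in fewer cells.

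The other Dntt regions were rarer. The 6.87 kb region had signal in 6.25% and 6.38% of cells at 0 hours and in 0% and 1.39% at 24 hours, with a log2 change of -2.22 (SE 1.48) and an adjusted p of 0.558 in edgeR's test. It had 6 cells with signal at 0 hours and 1 at 24 hours, and its log2 change was -5.345 when 24-hour run 2 was left out and -1.34 when 24-hour run 1 was, the extremes over the 4 runs. The value of -5.345 is fitted against a single 24-hour run at 0 and is no bound. The 1.94 kb region was found in 1 cell in each 0-hour run, in 3 cells of 24-hour run 1 and in 0 of 24-hour run 2, and its runs overlapped (log2 change 0.65, SE 1.64, edgeR adjusted p = 0.911).

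With its 3 regions summed, Dntt had 23 and 16 counts at 0 hours and 7 and 2 counts at 24 hours. As CPM, scaled by TMM over the counts in regions assigned to genes, these were 163 and 202.2 CPM at 0 hours and 63.4 and 15.8 CPM at 24 hours. The log2 change of the gene sum was -2.20 (SE 0.71), a 4.59-fold higher fitted level at 0 hours, with an unadjusted p of 0.00204 and an adjusted p of 0.127 over 9894 genes in edgeR's quasi-likelihood test, where it ranked 159. Signal in any Dntt region was found in 14 of 48 and 12 of 47 cells at 0 hours (29.2% and 25.5%) and in 3 of 60 and 1 of 72 cells at 24 hours (5% and 1.39%). After thinning these shares were 10.4% and 17.4% at 0 hours and 4.26% and 0% at 24 hours. Without 24-hour run 1, the run with more Dntt signal of the 24-hour pair, the adjusted p was 0.00782 for the gene and 0.0123 for the 10.0 kb region, and the single 24-hour run left is taken to have the spread of the 0-hour pair. With each of the other 3 runs left out, the adjusted p of the Dntt sum in edgeR's test was 0.426 to 0.779, with log2 changes of -2.35 to -1.49. Without that run many more regions passed the test over the whole matrix too, 341 higher at 0 hours and 456 at 24 hours. At 0 hours, the 26 cells with Dntt signal had a median of 3140 counts and the cells without it 1860 counts, and at 24 hours the 4 cells with signal had a median of 2237 counts and the others 1756.

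**Figure D1:**
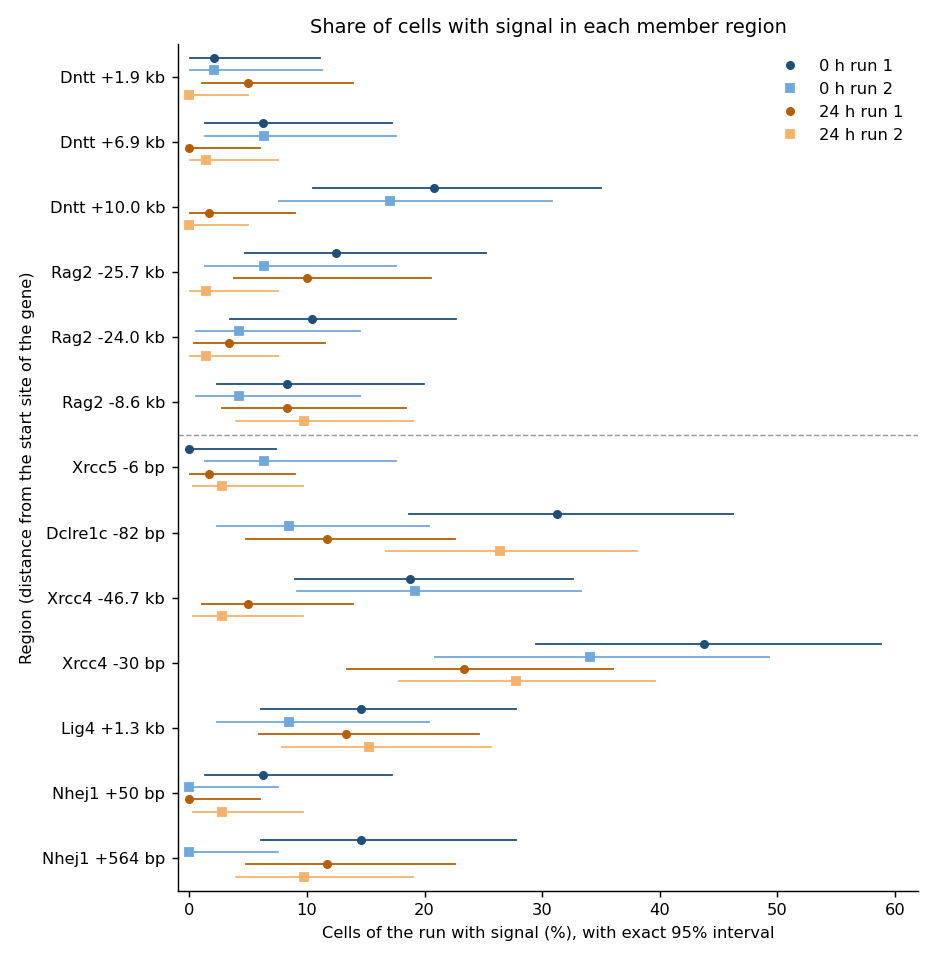
Share of cells with signal (x axis, percent of the cells of a run) for the 13 member regions (y axis, by gene and distance from its start site), with exact 95% intervals for counting error; blue, 0 hours, orange, 24 hours, circles run 1 and squares run 2, and the dashed line divides lymphoid-specific from general genes. The 10.0 kb Dntt region sits at 17% and 20.8% at 0 hours and at 0% and 1.67% at 24 hours, while the Xrcc4 promoter region is the most often detected of the 13 in each run, at 23.3% to 43.8%.

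Rag2, the partner of RAG1 in the recombinase, had 3 regions 25.7, 24.0 and 8.64 kb upstream of its start site, all in introns of the overlapping gene B230118H07Rik on chromosome 2. An enhancer of the Rag genes named Erag is known upstream of Rag2, and whether any of these regions coincides with it was not tested. The 25.7 kb region had signal in 12.5% and 6.38% of cells at 0 hours and in 10.0% and 1.39% at 24 hours. The 24.0 kb region had signal in 10.4% and 4.26% at 0 hours and in 3.33% and 1.39% at 24 hours. By share of cells the time-points did not overlap in the 24.0 kb region, but by CPM they did, at 48.5 and 20.9 CPM against 24.3 and 14.7 CPM, and the shares of the 25.7 kb region overlapped. The 8.64 kb region, the nearest to the start site, had signal in 8.33% and 4.26% of cells at 0 hours and in 8.33% and 9.72% at 24 hours. By CPM it was higher in both 24-hour runs, at 42.4 and 41.8 CPM against 56.6 and 58.7 CPM. Its log2 change was 0.44 (SE 0.89), beside -0.33 (SE 1.00) and -0.88 (SE 1.21) for the 25.7 and 24.0 kb regions, and the 3 adjusted p-values in edgeR's test were 0.890, 0.934 and 0.826.

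Summed over its regions, Rag2 had 24 and 9 counts at 0 hours and 17 and 12 counts at 24 hours, or 170.1 and 113.8 CPM against 154 and 94.8 CPM. These levels overlapped, and the log2 change was -0.23 (SE 0.57, edgeR adjusted p = 0.929). The difference between the changes of Dntt and Rag2 was not tested. Cells with signal at both Dntt and Rag2 numbered 3 of 48 and 2 of 47 at 0 hours and 0 of 60 and 0 of 72 at 24 hours, counts too small to compare.

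Rag1 itself had no member region. Its start site lies 31 bp from that of B230118H07Rik, and the nearest region of the matrix was 16 kb upstream and belonged to Traf6 by the rule. That region had signal in 0% and 2.13% of cells at 0 hours and in 5% and 4.17% at 24 hours, with a log2 change of 2.66 (SE 1.82, edgeR adjusted p = 0.550).

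The general end joining genes were covered mostly at their promoters. Of the Ku genes, Xrcc5 had 1 region (chr1:72307344-72307487), 6 bp upstream of its start site and over its UTR, with signal in 0 and 3 cells at 0 hours and in 1 and 2 cells at 24 hours. The runs overlapped, and the log2 change of 0.10 had an SE of 1.54 (edgeR adjusted p = 0.989). Xrcc6 had no region by the gene's 5′ end, where the nearest region lay 26.9 kb away. By the starts of all protein-coding transcripts, a region at chr15:82027848-82028000 lies 208 bp upstream of an Xrcc6 transcript, and it had signal in 29.2% and 6.38% of cells at 0 hours and in 8.33% in both 24-hour runs. Those runs overlapped (log2 change -0.53, SE 0.69, edgeR adjusted p = 0.819).

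Prkdc, which encodes the kinase DNA-PKcs, had no region, and the nearest one lay 43.4 kb from its start site and was assigned to Ube2v2. Dclre1c, which encodes the nuclease Artemis, had 1 region 82 bp upstream of its start site (chr2:3423974-3424124). Its signal was found in 31.2% and 8.51% of cells at 0 hours and in 11.7% and 26.4% at 24 hours. The time-points as a whole, at 20.0% and 19.7%, were closer together than the runs within either, and the log2 change was 0.58 (SE 0.58, edgeR adjusted p = 0.747). Leaving out 24-hour run 2 turned it to -0.37.

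Xrcc4, the scaffold of ligase IV, was the general gene with the most signal. Its promoter region (chr13:90089566-90089710), 30 bp upstream of the start site and shared with the UTR of the divergent gene Tmem167, had signal in 43.8% and 34% of cells at 0 hours and in 23.3% and 27.8% at 24 hours. By share of cells both 0-hour runs were higher, but by CPM the runs overlapped at 200.1 and 261.2 CPM against 194 and 234.7 CPM. The log2 change was -0.09 (SE 0.48, edgeR adjusted p = 0.962). The second region lies 46.7 kb upstream in an intron of Tmem167, and it had signal in 18.8% and 19.1% of cells at 0 hours and in 5% and 2.78% at 24 hours. Here the time-points did not overlap by share of cells or by CPM (97 and 135.8 CPM against 48.5 and 14.7 CPM), and the log2 change of -1.85 (SE 0.80) had an unadjusted p of 0.0222 and an adjusted p of 0.316 in edgeR's test. It was lowest with 24-hour run 1 left out, at -2.88 (edgeR adjusted p = 0.0674), and nearest to 0 with 24-hour run 2 left out, at -1.21. With both regions summed, Xrcc4 had a log2 change of -0.59 (SE 0.39, edgeR adjusted p = 0.581).

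Lig4, the ligase itself, and Nhej1, which encodes the XRCC4-like factor XLF, lay on the other side. The Lig4 region, 1.27 kb downstream of the gene's start site in an intron, had 66.7 and 52.2 CPM at 0 hours and 105.1 and 154 CPM at 24 hours. The 24-hour runs were higher by CPM, but the shares of cells overlapped at 14.6% and 8.51% against 13.3% and 15.3%, and the log2 change of 1.09 (SE 0.66) had an edgeR adjusted p of 0.525. Lig4's start site is 21 bp from that of Abhd13 on the opposite strand, so signal here cannot be told apart between the pair. Nhej1 had an intronic region 564 bp downstream (chr1:75124564-75124709) with signal in 7 and 0 cells at 0 hours and in 7 and 7 cells at 24 hours, and a region 50 bp downstream over its first exon (chr1:75125094-75125207) with signal in 3 and 0 cells and in 0 and 2 cells. A count of 0 in 0-hour run 2 allows a share of up to 6.38% there by the limit of 3 counts and 7.55% by the exact interval. The runs of both regions overlapped by share of cells, and the log2 changes of 1.38 (SE 0.85) and 0.46 (SE 1.71) had edgeR adjusted p-values of 0.539 and 0.944. With single runs left out, the change of the 564 bp region lay between 0.61, when 0-hour run 2 was omitted, and 6.48, when 0-hour run 1 was (edgeR adjusted p = 0.454). That of the 50 bp region lay between -3.60, when 24-hour run 2 was omitted, and 3.95, when 0-hour run 1 was, and it was -0.26 when 0-hour run 2 was. The values of 6.48, -3.60 and 3.95 are fitted against a single run at 0 and are no bounds.

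**Figure D2:**
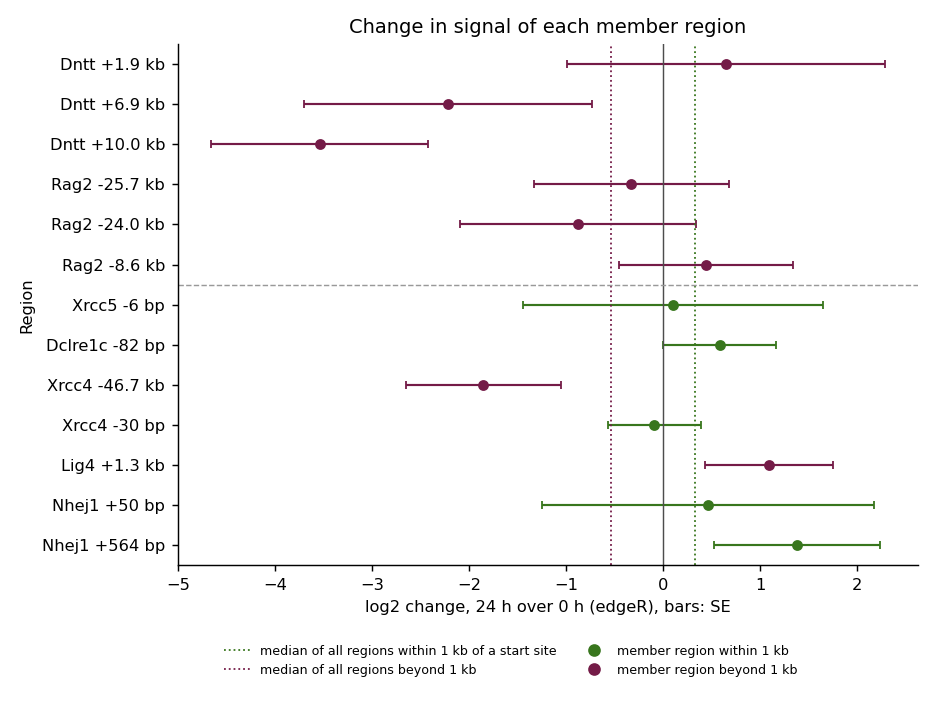
Log2 change in signal from 0 to 24 hours (x axis, edgeR fit, bars are SE) of the 13 member regions (y axis), green within 1 kb of the start site and purple beyond it, with dotted lines at the median change of all regions of each class. The 10.0 kb Dntt region lies lowest at -3.54, the distal Xrcc4 region lies at -1.85, and the 5 regions within 1 kb lie between -0.09 and 1.38.

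None of the 13 member regions and none of the 7 member genes with a region passed an adjusted p of 0.05 in edgeR's quasi-likelihood test. Over all 20103 regions, 0.0149% were called higher at 0 hours and 0.0398% at 24 hours, and over all 9894 genes 0.192% and 0.162%. At an unadjusted p under 0.05, 2 member regions (of Dntt and Xrcc4) were higher at 0 hours and 0 at 24 hours, beside 1407 and 1028 of all regions, and DESeq2 called 0 regions and 0 genes in all, with an adjusted p for 1 of the 7 member genes. On simulated counts whose biological coefficient of variation was set to 0.42, beside 0.419 estimated over regions and 0.328 over genes, the region test recovered 8 of 200 regions and the gene test 3 of 200 genes given a log2 change of 2. With a coefficient of 0.1 they recovered 43.5% of the regions and 58.5% of the genes, and the estimate over genes lies between these settings.

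By the share of cells, both 0-hour runs were above both 24-hour runs in 5 of the 13 member regions and the reverse held in 0, beside 33.7% and 8.59% of all regions. Of these 5, 3 were lymphoid-specific, the same regions that reached 5 cells at 0 hours alone, and 2 were at Xrcc4. By CPM, which takes depth into account, 3 member regions (2 at Dntt and the distal Xrcc4 region) were higher in both 0-hour runs and 3 (at Rag2, Lig4 and Nhej1) in both 24-hour runs, beside 25.7% and 19.3% of all regions. The 13 regions were thus near the background on both measures. For gene sums, Dntt and Xrcc4 were higher in both 0-hour runs and Lig4 and Nhej1 in both 24-hour runs, beside 21.9% and 21.5% of all genes.

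The background depended on the position of a region. Over all regions within 1 kb of a start site the median log2 change was 0.33, and over those beyond 1 kb it was -0.54. All 6 lymphoid-specific regions lay beyond 1 kb, with a median of -0.60, and 5 of the 7 general regions lay within 1 kb. The 5 member regions within 1 kb had a median of 0.46, and the 8 beyond 1 kb had a median of -0.60. By CPM, 3 of these 8 were higher in both 0-hour runs and 2 in both 24-hour runs, beside 35.5% and 12.4% of all regions beyond 1 kb. A difference between the lymphoid-specific and the general genes in these data therefore cannot be told apart from one between distal and promoter regions.

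As a list, the lymphoid-specific genes had 2.86 and 2.70 counts per 10000 counts of the run at 0 hours and 1.96 and 0.982 at 24 hours, with means of 2.78 ± 0.114 and 1.47 ± 0.690 (SD, n = 2 runs each). The general genes had 5.72 and 5.83 at 0 hours and 5.55 and 7.29 at 24 hours, with means of 5.77 ± 0.0778 and 6.42 ± 1.24. The lymphoid-specific list was lower in both 24-hour runs, and the general list overlapped. For every 100 counts in the general regions there were 50 and 46.3 counts in the lymphoid-specific ones at 0 hours and 35.3 and 13.5 at 24 hours.

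Of the 6 lymphoid-specific regions, 3 (Dntt at 6.87 and 10.0 kb and Rag2 at 24.0 kb) reached 5 cells at 0 hours alone, so the list and Dntt hold regions that entered the matrix through the time-point where they are high, and these sums are given as a description. Dntt had 1.40 and 1.73 counts per 10000 at 0 hours and 0.571 and 0.140 at 24 hours, while Rag2 had 1.46 and 0.972 at 0 hours and 1.39 and 0.841 at 24 hours. Without the 10.0 kb Dntt region, the list had 1.89 and 1.62 at 0 hours and 1.80 and 0.982 at 24 hours, and the time-points overlapped. Cells with signal in any lymphoid-specific region made up 47.9% and 31.9% at 0 hours and 26.7% and 13.9% at 24 hours, and cells with signal in any general region 72.9% and 57.4% at 0 hours and 46.7% and 56.9% at 24 hours. After thinning, the shares were 22.9% and 21.7% against 19.1% and 3.17% for the lymphoid-specific list and 31.2% and 37% against 34% and 46% for the general list. A value of 2 made up 31.2% to 71.4% of the nonzero values of a member region, and since no value in the matrix is above 2, larger counts may have been capped.

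**Figure D3:**
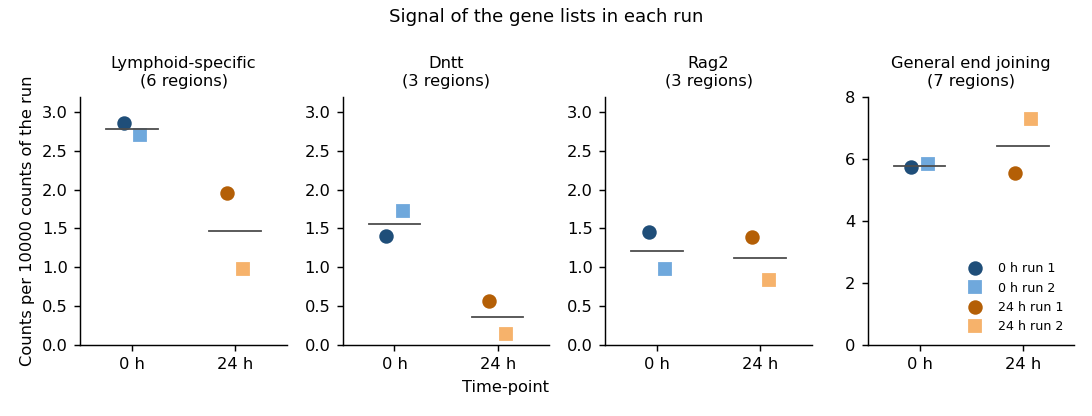
Counts per 10000 counts of the run (y axis, from 0, with a larger range in the right panel) at each time-point (x axis) for the lymphoid-specific list, Dntt, Rag2 and the general list; each point is 1 run and each bar the mean of 2 runs. The Dntt runs separate by time-point, at 1.40 and 1.73 against 0.571 and 0.140, whereas the runs of Rag2 and of the general list overlap, and 2 of the 3 Dntt regions reached 5 cells at 0 hours alone.

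Other genes that act with these were taken from 4 lists of 30 genes, of which 27 had a region, 45 regions in all. In the edgeR test of gene sums 1 of the 27 was called higher at 0 hours and 0 at 24 hours. At an unadjusted p under 0.05, 2 were higher at 0 hours and 2 at 24 hours, beside 616 and 571 of all 9894 genes. By the sign of the fit, 9 lay below 0 and 18 above.

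The called gene was Polm, one of 9 accessory end joining genes, all with a region. It encodes DNA polymerase mu, a relative of terminal transferase that fills in ends during joining. Polm had 45 and 17 counts at 0 hours and 10 and 2 at 24 hours, or 318.9 and 214.9 CPM against 90.6 and 15.8 CPM. Both 0-hour runs were higher, and the fitted level was 5.18-fold higher at 0 hours (log2 change -2.37, SE 0.60, edgeR adjusted p = 0.0361 with Benjamini-Hochberg adjustment over all genes). Its 2 regions, both within 1 kb of the start site, were taken one by one after the gene sum was seen. They had log2 changes of -2.29 (SE 0.69) and -2.14 (SE 1.26) with edgeR adjusted p-values of 0.168 and 0.493. The latter, 593 bp downstream of the start site, had signal in 10 and 1 cells at 0 hours and in 2 and 0 cells at 24 hours. That region reached 5 cells at 0 hours alone, so the p-values of the Polm sum are given as a description and not as support. The call was lost in 7 of the 11 other settings that gave an adjusted p, which ran from 0.000283 to 0.518 over all of them.

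In the break signalling list, 11 of 12 genes had a region and 0 were called. Mdc1, a scaffold at marked breaks, had signal in 25% and 10.6% of cells at 0 hours and in 23.3% and 13.9% at 24 hours (log2 change 0.42, SE 0.62, edgeR adjusted p = 0.862). H2afx, the histone phosphorylated around breaks, had signal in 20.8% and 14.9% at 0 hours and in 16.7% in both 24-hour runs (log2 change 0.26, SE 0.56, edgeR adjusted p = 0.917). The kinase gene Atm had no region.

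In the alternative end joining list, 5 of 6 genes had a region and 0 were called. Parp1, which senses breaks, had signal in 31.2% and 17% of cells at 0 hours and in 26.7% and 30.6% at 24 hours (log2 change 0.52, SE 0.47, edgeR adjusted p = 0.728). Xrcc1, a partner of DNA ligase III, had 99.2 and 50.6 CPM at 0 hours and 190.3 and 165.9 CPM at 24 hours (log2 change 1.16, SE 0.60, edgeR adjusted p = 0.423). Both 24-hour runs were higher for both of these genes by CPM. The last list held Hmgb1 and Hmgb2, which bend DNA in the RAG complex, and Ing2, a reader of methylated histone H3 that is not itself a RAG cofactor. Of these 3 genes, 2 had a region, and 0 were called. Hmgb2 had 134.7 and 189.6 CPM at 0 hours and 344.3 and 260.6 CPM at 24 hours (log2 change 0.92, SE 0.46, edgeR adjusted p = 0.403). Ing2 had 219.7 and 202.2 CPM at 0 hours and 262.7 and 300.1 CPM at 24 hours (log2 change 0.41, SE 0.44, edgeR adjusted p = 0.789).

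**Figure D4:**
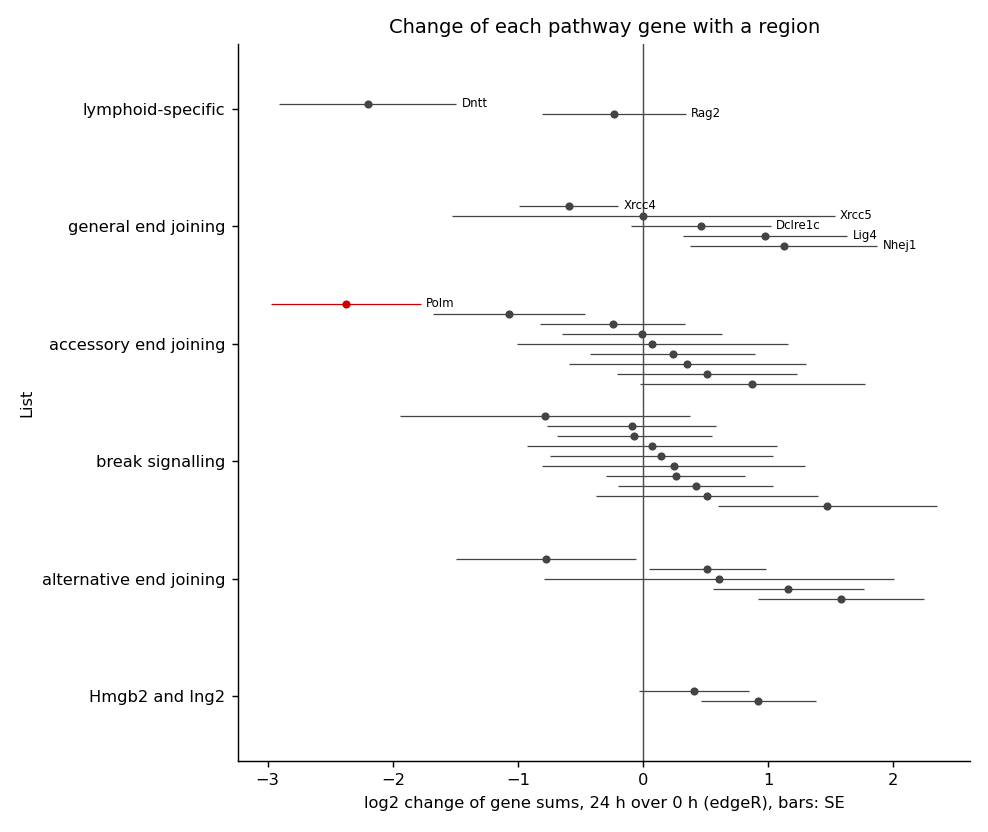
Log2 change of the gene sums from 0 to 24 hours (x axis, edgeR fit, bars are SE) for each gene with a region in the 6 lists (y axis), with red for an adjusted p under 0.05 and without Rnf168, whose 24-hour runs are at 0. Polm is the red point at -2.37, Dntt lies beside it at -2.20 without passing the test, and the general end joining genes lie between -0.59 and 1.13.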

How the data were processed

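Single-cell ATAC-seq libraries from 227 captured cells were analysed. The authors aligned reads with Bowtie2 (mm10), discarded duplicates with Picard and took regions from HOMER peaks of the bulk replicates. They deposited whole-number counts for every region in every cell, not normalized. The largest value is 2, and the sources used here do not state a cap. The columns of all 227 cells were used, and 0 per-sample columns were left out. The bulk samples were not analysed here.

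The cells of a run are not replicates, so each C1 run was taken as 1 sample by summing its cells (92639 to 164357 counts). Regions, and sums over the regions of each gene, were tested across all 20103 regions and 9894 genes with edgeR 4.0.16 in R 4.3.3 (quasi-likelihood test, TMM, Benjamini-Hochberg adjustment, threshold 0.05). DESeq2 1.42.0 was an alternative, and an adjusted p that it left undefined was not used. The tests were tested on simulated data with 200 changed features. Genes were taken from GENCODE vM21, whose build is that of the deposited regions, copies were counted by BLAST 2.17.0 (90% identity over 80% of a region), and shares of cells carry exact 95% intervals from SciPy 1.17.1, which cover counting error only, as does the limit of 3 counts for a count of 0. No doublet caller was run, since each capture site had been inspected by eye.

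Every member region is accounted for. Of the other pathway lists, genes past the threshold are named or, where there were none, the 2 with the most cells with signal. The members, lists and tests were chosen with earlier results of these data known. Alternatives were other scalings, filters and assignments, detected or not detected values, thinned cells, a replicate block and each run left out. The list without the 10.0 kb Dntt region and the Polm regions one by one were added after seeing the data.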

Additional observations from a re-analysis of the deposited data

How the results depend on the processing

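No member was called in either direction, except without 24-hour run 1, in the alternatives that could test them. The 10% filter kept 4 of the 13 member regions, and of the 7 member genes 6 had at least 20 counts, 4 had a region within 1 kb and 1 had an adjusted p from DESeq2, and the first and the last 2 of these sets hold neither Dntt nor Rag2. Without 24-hour run 1, 1 member region and 1 member gene, both of Dntt, were called higher at 0 hours. Leaving out each run in turn gave 0 to 341 regions and 0 to 246 genes called higher at 0 hours, and 1 to 456 regions and 0 to 282 genes at 24 hours, and the upper ends were all without 24-hour run 1. Over all regions, 3 were called higher at 0 hours and 8 at 24 hours. These counts became 12 and 21 with run totals, 0 and 0 with DESeq2, with detected or not detected values and with thinned cells, 10 at 0 hours with regions in at least 10% of cells, and 2 at 24 hours with a cell-number offset. Over all genes, 19 and 16 were called, against 0 and 0 with a cell-number offset, DESeq2, thinned cells or a minimum of 20 counts, and 1 and 3 with only regions within 1 kb. No pairing of same-numbered runs was seen (r = -0.011 over regions between their deviations). This check cannot exclude a pairing, since the median region had signal in 13 cells and counting error is large. With the replicate block 7 genes were called at 0 hours and 5 at 24 hours, and the Polm sum had an edgeR adjusted p of 0.0637. The call of Polm was also lost with a cell-number offset, thinned cells, a minimum of 20 counts and without 0-hour run 1, 0-hour run 2 or 24-hour run 2, while its log2 change stayed between -4.03 and -1.59. The log2 change of the Dntt sum ran from -3.42 to -1.49 and that of its 10.0 kb region from -6.74 to -2.56, all below 0. The value of -6.74 is fitted against a single 24-hour run at 0 and is no bound. That region reached 5 cells at 0 hours alone, so the sign is given as a description. Some changes of single regions and of Rag2 turned sign. With a cell-number offset, the Xrcc5 region was at -0.16, the 50 bp Nhej1 region at -0.11 and the 8.64 kb Rag2 region at -0.022. The Xrcc5 region was at -0.053 with DESeq2, and the 50 bp Nhej1 region at -0.45 with detected or not detected values. With thinned cells, the Xrcc5 region was at -1.03, the 1.94 kb Dntt region at -0.99 and the Rag2 sum at 0.036. With each run left out, the Xrcc5 region ran from -1.06 to 4.50, the 50 bp Nhej1 region from -3.60 to 3.95, the Xrcc4 promoter region from -0.26 to 0.10, the 1.94 kb Dntt region from -3.79 to 1.68, the Dclre1c region from -0.37 to 1.11, the 25.7 kb Rag2 region from -1.55 to 0.33 and the Rag2 sum from -0.62 to 0.12. The values of 4.50, -3.60, 3.95 and -3.79 are each fitted against a single run at 0 and are no bounds. The lymphoid-specific list had a difference of -1.003 between the time-points' means of log2 signal, from -1.50 to -0.51 with each run left out, and -0.40 without the 10.0 kb Dntt region. The general list had 0.14, from -0.058 to 0.34 with each run left out, -0.003 with detected or not detected values and -0.23 per cell. By the starts of all protein-coding transcripts 8 regions in place of 13 were members, since the 3 Rag2 regions then belonged to B230118H07Rik the 2 Nhej1 regions to Slc23a3 and the distal Xrcc4 region to Tmem167, while Xrcc6 gained 1, and within 10 kb there were 9. The causes of these shifts were not tested, and the depth of 92639 to 164357 counts per run leaves a median of 18 cells with signal per member region.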

Other observations

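The antigen receptor loci, the substrates of RAG, held 85 regions in the matrix, of which 0 were called in edgeR's quasi-likelihood test. The heavy chain locus Igh held 62 of them, with 27.5 and 33.6 counts per 10000 counts of the run at 0 hours and 21.2 and 12.3 at 24 hours. Both 0-hour runs were above both 24-hour runs in the sum. By CPM the same held for 29 of the 62 regions (46.8%) and the reverse for 6, beside 35.5% and 12.4% of all regions beyond 1 kb of a start site. All 62 count as beyond 1 kb, but the start sites are those of protein-coding genes and leave out the receptor gene segments. A region at a segment's own start is thus classed as distal, at this and the other loci, and the background is not matched for it. The lowest adjusted p of an Igh region was 0.171.

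The kappa light chain locus Igk, which pre-B cells rearrange after Igh, held 15 regions with 7.42 and 7.23 counts per 10000 at 0 hours and 4.57 and 4.56 at 24 hours, and these sums did not overlap. Of its regions, 5 (33.3%) were higher in both 0-hour runs and 2 (13.3%) in both 24-hour runs by CPM, close to the 35.5% and 12.4% of all regions beyond 1 kb. The lambda locus Igl held 1 region, with 1.09 and 0.216 counts per 10000 at 0 hours and 1.55 and 0.771 at 24 hours, which overlapped. Among the T cell receptor loci, Trb held 0 regions, Tra 3 and Trg 4. Tra had 1.34 and 0.648 counts per 10000 at 0 hours and 0.326 and 0.281 at 24 hours, which did not overlap. Its 3 regions were each higher in both 0-hour runs by CPM. Together they held only 4 counts in each 24-hour run, so they cannot all have reached 5 cells at 24 hours. Their separation is therefore given as a description and not as support. Trg had 2.62 and 1.51 counts per 10000 at 0 hours and 1.71 and 0.0701 at 24 hours, and these runs overlapped.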
